A study of Mus musculus with 12 samples.

Results

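Cell cycle and replication genes were examined in oligodendrocytes sorted from the brains of mice that lack Jab1 in this lineage, and of mice that lack both Jab1 and p21CIP1. The set was a list of 46 gene symbols covering cyclins, cyclin-dependent kinases, E2F and RB family proteins, and genes of DNA replication and mitosis, and each symbol matched 1 row of the 55376 in the count table. All 46 passed the filter of at least 1 CPM (counts scaled to a common library size) in at least 4 of the 12 samples, which left 17716 genes for testing. RNA-Seq had been performed on O1+ CD45- cells taken at P40 from C57BL/6 mice, with 2 brains pooled in each sample. O1 is a surface lipid of differentiating oligodendrocytes, and CD45 marks leukocytes. Of the 12 samples, 4 were from WT mice (numbered 1, 3, 5 and 6), 4 from Cnp-Cre Jab1fl/fl mice (1 to 4), in which a Cre recombinase under control of the Cnp gene deletes the loxP-flanked Jab1, and 4 from Cnp-Cre Jab1fl/fl p21CIP1-/- double mutants (1, 2, 3 and 5), which also lack p21 in every cell of the body. The Cre is active from late oligodendrocyte precursors (OPCs) onward, and no group with p21 deletion alone was among the samples analysed here.

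The entry into the cell cycle is driven by D cyclins, which activate CDK4 and CDK6, and these kinases phosphorylate the pocket proteins RB1, RBL1 and RBL2. Phosphorylated pocket proteins release E2F factors, which switch on the genes for nucleotide synthesis and for the replication machinery, while the MCM helicase, CDT1 and its inhibitor geminin restrict replication to a single round. Later in the cycle, FOXM1 and B-MYB turn on the mitotic genes, p21 (encoded by Cdkn1a) inhibits cyclin-dependent kinases, and mature oligodendrocytes have normally left the cycle for good.

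Total counts ranged from 61485556 to 153495112 per sample. The 10 markers of mature oligodendrocytes summed to 40506 to 98516 CPM in WT samples, 9040 to 34523 in Jab1 mutants and 16531 to 52320 in double mutants, and 7 of the 10 were called lower in Jab1 mutants than in WT (2.46% of all genes). Markers of other cells were present in every group. Those of erythroid cells (7 genes, among them those of hemoglobin) summed to 885 to 10923 CPM in WT samples, 5222 to 88317 in Jab1 mutants and 4324 to 22181 in double mutants, and exceeded the mature oligodendrocyte sum in Jab1-mutant replicates 1, 3 and 4. Astrocyte markers (10 genes) summed to 5670 to 14128, 3658 to 8751 and 4143 to 11300 CPM. Endothelium markers were called higher in Jab1 mutants in 7 of 10 and mural markers in 4 of 9 (5.19% of all genes). Microglia markers (20 genes) summed to 149 to 366 CPM in WT samples, 1359 to 3418 in Jab1 mutants and 542 to 23377 in double mutants, with the highest value in replicate 3, and 18 of the 20 were called higher in Jab1 mutants than in WT (5.19% of all genes). Cops5, the gene that encodes JAB1, averaged 103 ± 39.9 CPM in WT samples, 67.1 ± 18.1 in Jab1 mutants and 58.8 ± 21.6 in double mutants (SD, n = 4), which did not pass the edgeR test (log2 fold changes of -0.62 and -0.82, adjusted p of 0.349 and 0.424). Cdkn1a was higher in Jab1 mutants than in WT mice by 3.44 on the log2 scale (edgeR, adjusted p = 0.0044). In the samples labelled p21CIP1-/- it averaged 88.7 ± 18.0 CPM, below the 454 ± 124 of Jab1 mutants (-2.35, edgeR, adjusted p = 0.092) but above the 41.7 ± 31.5 of WT samples (1.08, edgeR, unadjusted p = 0.047, adjusted p = 0.394). These counts are per gene and do not separate the deleted exons, so they check neither deletion, and the genotypes were taken from the labels. By quantitative PCR in sorted O1+ cells, the paper reports reduced Cops5 in Jab1 mutants and undetectable Cdkn1a in double mutants.

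In Jab1 mutants, the proliferation marker Mki67 rose 4.93-fold, and it was the only member that passed the edgeR test, whereas none fell. Thus 1 of the 46 (2.17%) was called higher, against 5.19% of all genes tested, and 0 were called lower, against 2.46%. The fitted values of the other members lay mostly above WT without passing the test. Of the 46, 43 (93.5%) had a log2 fold change above 0, compared with 51% of all genes, and their median was 0.79, compared with 0.02. An unadjusted p under 0.05 was reached by 8 members (17.4%, against 13.2% of all genes), all higher and none lower (9.3% of all genes), namely Mki67, Ezh2, Top2a, Ccnd3, Gmnn, Ccnd2, Ccna2 and Cdk6. In 3 members, Mki67, Ezh2 and Gmnn, every mutant sample lay above every WT sample (6.52%, against 9.9% of all genes), and in 0 did every mutant sample lie below (7.24%). DESeq2 called Mki67, Ezh2 and Top2a higher and 0 members lower, against 9.52% and 5.66% of all genes. These counts moved with single samples. Without Jab1-mutant replicate 2, 29 of the 46 (63.0%) lay above 0, compared with 49.5% of all genes, and the median of the members was 0.16, compared with -0.01. Without WT replicate 1, 42 lay above 0 with a median of 1.08, and 11 had an unadjusted p under 0.05.

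In double mutants, no member passed the edgeR test against WT in either direction, against a background of 0.175% of genes called higher and 0.0169% called lower. Again 41 of the 46 lay above 0 (50% of all genes), with a median of 0.81, and 6 had an unadjusted p under 0.05 (13.04%, against 7.82% of all genes), all of them higher and none lower (4.57%), namely Mcm7, Aurkb, Mki67, Mcm2, Cdk4 and Ccnd3. The groups did not overlap for Cdk4 and Mcm2 (4.35% of members, 4.52% of all genes), and 0 members lay wholly below WT (3.58%). DESeq2 also called 0 members, against 3.74% of all genes higher and 1.12% lower. Without double-mutant replicate 5, 34 members lay above 0, with a median of 0.37, and 0 had an unadjusted p under 0.05. The same WT samples served in both comparisons, so the likeness of these figures is not independent.

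When double mutants were compared with Jab1 mutants, 0 members were called by edgeR or by DESeq2, and 0 reached an unadjusted p under 0.05. This comparison uses the samples of the other two again. Of all genes, edgeR called 0%, with 310 genes higher (1.75%) and 575 lower (3.25%) at an unadjusted p under 0.05, and DESeq2 called 20 higher (0.113%) and 67 lower (0.378%). The members were spread on both sides of 0, with 20 above (51.3% of all genes) and 26 below (48.7%) and a median of -0.06. For 44 of the 46 members, the 95% interval of this difference included a log2 fold change of 1 or of -1, so differences of that size remain possible, and only the intervals of Ccnd3 and Pcna left out both. The groups did not overlap for 1 member, Ccne2 (2.17%, against 1.22% of all genes), for which double mutants were higher, and for 0 were they lower (1.99%).

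**Figure D1:**
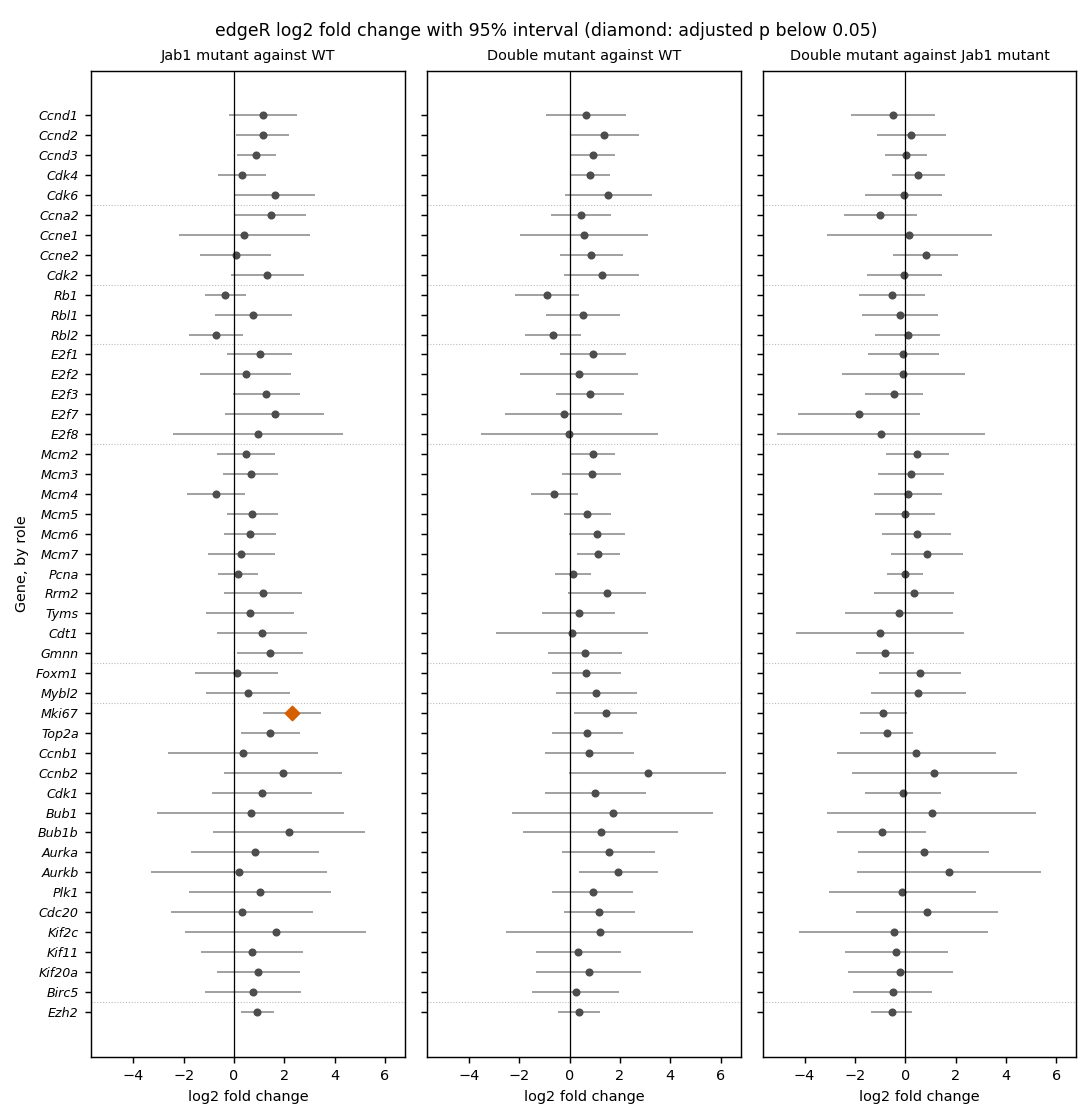
Log2 fold change of each of the 46 genes (vertical axis, grouped by role) in 3 comparisons, with 95% intervals as lines. The single diamond is Mki67 in Jab1 mutants, the only value with an adjusted p below 0.05, and most intervals cross 0.

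The mitosis group held 15 members. Mki67 (chr7:135689784-135716361, minus strand, GRCm38), a nuclear protein that coats mitotic chromosomes and marks cycling cells, had 14.1, 5.78, 2.51 and 5.78 CPM in WT replicates 1, 3, 5 and 6. In Jab1 mutants it had 21.8, 38.4, 50.2 and 28.7 CPM in replicates 1 to 4, and in double mutants 9.37, 18.3, 24.8 and 23.6 CPM in replicates 1, 2, 3 and 5. The lowest mutant sample thus lay above the highest WT sample, while double mutants overlapped both groups. The log2 fold change was 2.30 ± 0.53 (SE) in Jab1 mutants against WT (edgeR, adjusted p = 0.025). Without Jab1-mutant replicate 2 it was 2.24 (edgeR, adjusted p = 0.035) and without WT replicate 1 it was 2.89 (edgeR, adjusted p = 0.017). When WT replicate 3, 5 or 6 or Jab1-mutant replicate 3 was left out, it was 2.20, 2.02, 2.22 and 2.07, and missed the threshold (edgeR, adjusted p of 0.053 to 0.073). In double mutants the log2 fold change was 1.42 ± 0.57 against WT (edgeR, unadjusted p = 0.031, adjusted p = 0.335) and -0.87 ± 0.42 against Jab1 mutants (edgeR, unadjusted p = 0.061, adjusted p = 0.968). Corrected for the length of the gene, the level was 3.46 CPM per kb of exon in Jab1 mutants, above 40.1% of the genes tested. It was 0.70 in WT samples and 1.89 in double mutants, above 14.9% and 28.9%.

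Top2a, which encodes the topoisomerase that untangles sister chromatids, had 40.7, 14.5, 6.53 and 8.97 CPM in the WT samples, 40.4, 58.2, 60.7 and 33.5 in Jab1 mutants, and 26.2, 20.7, 11.2 and 57.6 in double mutants. WT replicate 1 stood within the range of the Jab1 mutants, and the log2 fold change was 1.45 ± 0.54 (edgeR, adjusted p = 0.133). DESeq2 called it (adjusted p = 0.044), and so did edgeR when WT replicate 1 was left out (2.27, adjusted p = 0.020). Double mutants differed from Jab1 mutants by -0.74 ± 0.48, which was not called. Aurkb, the kinase of the chromosomal passenger complex, had 7.36, 3.48, 1.87 and 6.47 CPM in WT samples, 0.013, 18.9, 3.14 and 0 in Jab1 mutants, and 3.98, 9.39, 32.9 and 27.4 in double mutants. Here the Jab1 mutants spanned the whole range from 0 to 18.9, and the double mutants were high in only replicates 3 and 5. The log2 fold change of Aurkb in double mutants was 1.94 ± 0.71 against WT (edgeR, adjusted p = 0.300) and 1.74 ± 1.65 against Jab1 mutants (edgeR, adjusted p = 0.997), and the second was 4.13 without Jab1-mutant replicate 2 (edgeR, adjusted p = 0.526) and 1.31 to 2.08 without any other sample.

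The other 12 mitosis members were the mitotic cyclins Ccnb1 and Ccnb2 with their kinase Cdk1, the spindle checkpoint kinases Bub1 and Bub1b, the mitotic kinases Aurka and Plk1, the anaphase activator Cdc20, the kinesins Kif2c, Kif11 and Kif20a, and the survivin gene Birc5. None was called in any comparison, and all 15 members of the group lay above 0 in both mutant genotypes against WT, with medians of 0.97 and 1.17. Without Jab1-mutant replicate 2, 8 of the 15 lay above 0 in Jab1 mutants. The spread between samples of 1 genotype was wide. Ccnb1 had 0.37, 45.2, 6.10 and 0.054 CPM in the 4 Jab1 mutants, and 7 of the 15 genes had at most 3 counts in at least 1 sample, compared with 3 of the other 31 members. These were Ccnb2, Bub1, Bub1b, Aurkb, Plk1, Cdc20 and Kif2c, and the others were Ccne1, E2f8 and Cdt1. In the smallest library 3 counts are worth 0.044 CPM, so the measured levels there were at 0 or close to it. Other samples of the same genotype had up to 47.3 CPM. The amplified reads carry no molecular identifiers, so these counts do not show whether the transcripts were absent from the cells. Of all genes tested, 2.08% to 6.97% were at this floor in a library.

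The promoters of 3 of these genes are shown because mitotic genes are known to carry CCAAT boxes, bound by NF-Y, and CHR elements, bound by the complex that holds B-MYB and FOXM1. Each is the 250 bases before the start site in RefSeq (GRCm38.p6), written in the direction of the gene, with capitals for any match to a CHR element (TTTGAA or TTCGAA), an E2F element (TTTGGCGC, TTTCCCGC, TTTCGCGC or TTTGCCGC) or CCAAT, on either strand. Mki67 (chr7:135716380-135716629, minus strand) held 2 CHR elements and 3 CCAAT boxes, Top2a (chr11:99024190-99024439, minus strand) 4 and 6, and Cdk1 (chr10:69352913-69353162, minus strand) 2 and 3 with 1 E2F element.
Mki67: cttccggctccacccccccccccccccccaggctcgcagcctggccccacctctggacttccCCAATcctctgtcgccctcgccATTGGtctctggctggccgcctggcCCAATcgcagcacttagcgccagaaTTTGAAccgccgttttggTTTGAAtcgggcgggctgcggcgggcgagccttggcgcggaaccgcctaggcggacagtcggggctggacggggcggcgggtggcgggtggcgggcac
Top2a: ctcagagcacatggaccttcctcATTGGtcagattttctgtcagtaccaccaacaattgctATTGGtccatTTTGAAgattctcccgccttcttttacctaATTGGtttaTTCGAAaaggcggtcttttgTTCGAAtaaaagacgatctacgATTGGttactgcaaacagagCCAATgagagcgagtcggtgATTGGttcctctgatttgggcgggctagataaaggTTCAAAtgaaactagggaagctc
Cdk1: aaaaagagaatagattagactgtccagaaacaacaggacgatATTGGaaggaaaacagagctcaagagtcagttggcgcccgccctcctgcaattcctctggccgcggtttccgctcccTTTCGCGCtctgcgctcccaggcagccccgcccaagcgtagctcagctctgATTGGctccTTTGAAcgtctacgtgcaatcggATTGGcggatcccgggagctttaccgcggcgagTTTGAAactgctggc

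**Figure D2:**
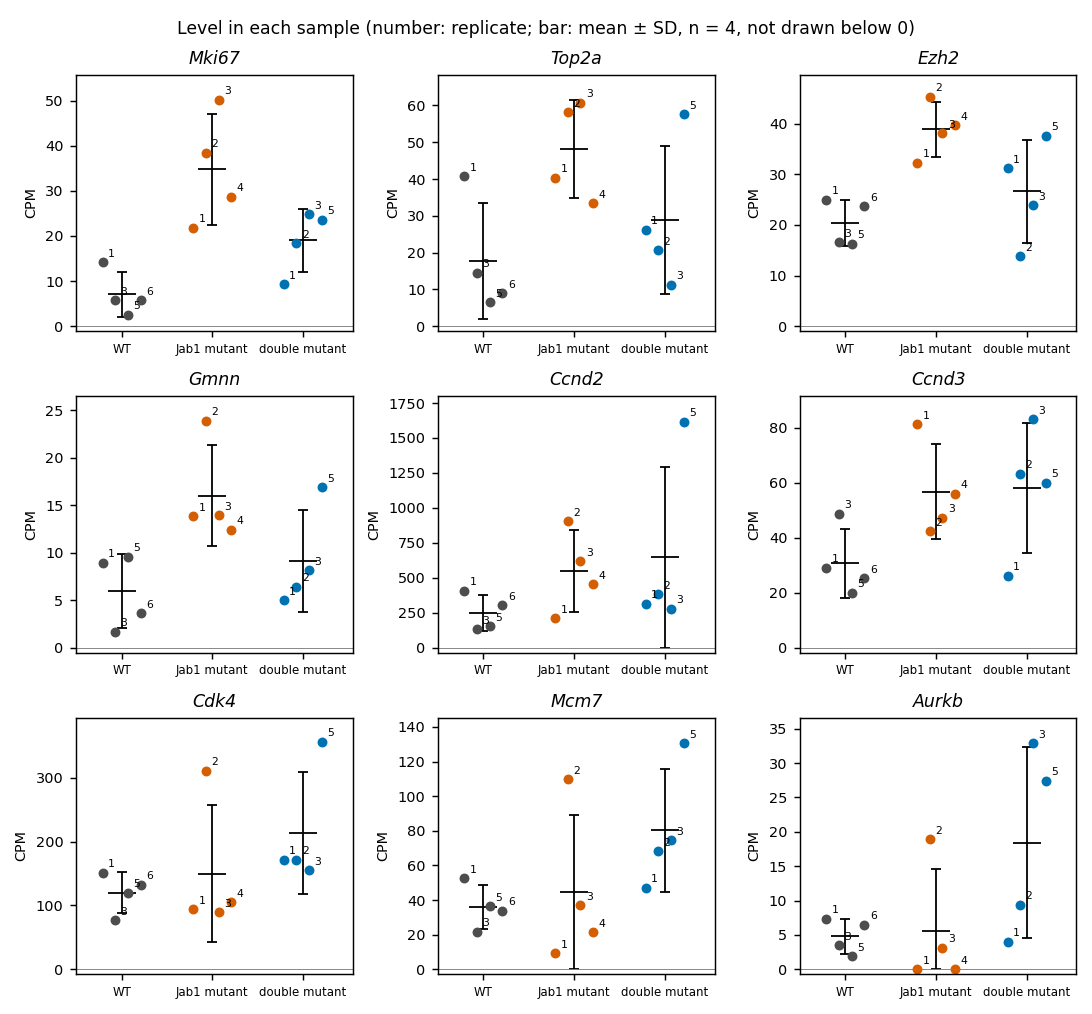
Level in CPM (vertical axis, from 0) of 9 members in each of the 12 samples, by genotype. Points are samples with their replicate numbers and bars are the mean ± SD. The 4 Jab1-mutant points of Mki67, Ezh2 and Gmnn lie above all WT points, while Cdk4 and Mcm7 are each led by Jab1-mutant replicate 2 and double-mutant replicate 5.

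The licensing and replication group held 11 members. Gmnn (chr13:24751845-24761923, minus strand) encodes geminin, which blocks relicensing by binding CDT1. It had 8.97, 1.70, 9.57 and 3.66 CPM in WT samples, 13.8, 23.9, 14.0 and 12.4 in Jab1 mutants, and 5.02, 6.41, 8.19 and 16.9 in double mutants. All Jab1 mutants lay above all WT samples, by 1.42 ± 0.59 on the log2 scale (edgeR, unadjusted p = 0.035, adjusted p = 0.181), while 3 of the 4 double mutants lay within the WT range. The difference of double mutants from Jab1 mutants was -0.81 ± 0.52 (edgeR, adjusted p = 0.996).

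The 6 subunits of the MCM2-7 helicase, which unwinds DNA at the fork, had fitted values on both sides of 0. Mcm7 had 52.7, 21.8, 36.5 and 34.0 CPM in WT samples, 9.44, 109.7, 37.1 and 21.5 in Jab1 mutants, and 47.1, 68.3, 74.7 and 130.6 in double mutants. Only WT replicate 1 reached the range of the double mutants, and the difference of double mutants from WT was 1.14 ± 0.38 on the log2 scale (edgeR, unadjusted p = 0.013, adjusted p = 0.255). Against Jab1 mutants it was 0.85 ± 0.65, and 1.82 without Jab1-mutant replicate 2 (edgeR, adjusted p = 0.347). Mcm2 had 14.4, 11.9, 9.72 and 14.2 CPM in WT samples, 17.8, 33.4, 5.18 and 12.7 in Jab1 mutants, and 18.2, 20.1, 16.3 and 41.8 in double mutants. Its double mutants all lay above WT, by 0.93 ± 0.40 (edgeR, unadjusted p = 0.042, adjusted p = 0.376), a difference that was 0.52 without double-mutant replicate 5, and it was 0.48 ± 0.57 against Jab1 mutants. Mcm4 pointed the other way, with 27.2, 26.7, 31.5 and 16.02 CPM in WT samples, 23.3, 25.5, 4.49 and 8.76 in Jab1 mutants, and 10.1, 24.7, 10.02 and 22.3 in double mutants. The groups overlapped, and its log2 fold changes against WT were -0.71 ± 0.53 and -0.61 ± 0.42 (edgeR, adjusted p of 0.482 and 0.596). Of the CPM per kb of exon summed over the 6 subunits, Mcm4 made up 19.0% ± 3.86 in WT samples, 10.03% ± 6.61 in Jab1 mutants and 7.77% ± 3.59 in double mutants (SD, n = 4). Mcm7 made up 32.6% ± 8.23, 29.4% ± 14.8 and 42.6% ± 3.15. These shares are corrected for exon length and were not tested.

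Mcm3, Mcm5 and Mcm6 had log2 fold changes of 0.63 to 0.72 in Jab1 mutants and of 0.70 to 1.08 in double mutants against WT, none of which was called. Pcna, the sliding clamp of the replicative polymerases, was level across the genotypes, at 70.8 ± 23.4 CPM in WT samples, 79.2 ± 32.7 in Jab1 mutants and 78.6 ± 15.96 in double mutants. Its 95% interval against WT ran from -0.62 to 0.94 in Jab1 mutants and from -0.57 to 0.84 in double mutants, and therefore left out a log2 fold change of 1 in both. Rrm2 and Tyms, which serve nucleotide synthesis, had 23.1 ± 17.6 and 9.40 ± 0.97 CPM in WT samples. In Jab1 mutants Rrm2 spanned 17.2 to 130.8 CPM and Tyms 1.26 to 34.6. Cdt1, which loads the helicase, averaged 3.15 ± 0.44 CPM in WT samples and ran from 0 to 9.40 in double mutants.

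The windows of Mcm5 and Mcm6 are shown because they held the most E2F elements among the members. In Mcm5 (chr8:75109259-75109508, plus strand) 2 E2F elements overlapped in 1 run, and in Mcm6 (chr1:128359706-128359955, minus strand) 2 of 3 did. The capitals have the same meaning as above.
Mcm5: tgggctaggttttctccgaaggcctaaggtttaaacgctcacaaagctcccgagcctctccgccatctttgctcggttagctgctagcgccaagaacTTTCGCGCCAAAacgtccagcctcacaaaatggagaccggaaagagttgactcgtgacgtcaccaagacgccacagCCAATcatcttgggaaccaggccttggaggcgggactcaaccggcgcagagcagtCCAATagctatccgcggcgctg
Mcm6: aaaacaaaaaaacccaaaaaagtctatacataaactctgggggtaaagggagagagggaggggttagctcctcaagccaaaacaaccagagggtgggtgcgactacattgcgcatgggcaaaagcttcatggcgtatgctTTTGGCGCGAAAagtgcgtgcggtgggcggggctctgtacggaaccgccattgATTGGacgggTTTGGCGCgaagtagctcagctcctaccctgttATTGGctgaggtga

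D cyclins and their kinases comprised 5 members and included the most abundant of the set. Per kb of exon, Cdk4 had 58.5 CPM, Pcna 46.6 and Ccnd2 37.2 in WT samples, which placed them above 93.2%, 91.3% and 89.0% of the genes tested. The SDs of these 3 levels were 15.5, 15.4 and 19.2, so their order is not resolved. On the same scale per kb of exon, Ccnd2 made up 69.6% ± 14.8 of the D-cyclin sum in WT samples, 71.2% ± 19.2 in Jab1 mutants and 71.8% ± 16.6 in double mutants. Cdk4 made up between 94.2% and 99.8% of the sum of Cdk4 and Cdk6 in all 12 samples.

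Ccnd2 had 407, 133, 156 and 303 CPM in WT samples, 211, 905, 620 and 456 in Jab1 mutants, and 315, 382, 281 and 1617 in double mutants. The groups overlapped, and the log2 fold changes against WT were 1.13 ± 0.49 and 1.37 ± 0.62 (edgeR, adjusted p of 0.193 and 0.404). Ccnd3 had 29.1, 48.9, 20.1 and 25.3 CPM in WT samples, 81.3, 42.5, 47.4 and 56.1 in Jab1 mutants, and 26.2, 63.3, 83.2 and 60.1 in double mutants. WT replicate 3 lay within the Jab1-mutant range and double-mutant replicate 1 within the WT range, with log2 fold changes of 0.88 ± 0.35 and 0.91 ± 0.41 against WT (edgeR, adjusted p of 0.162 and 0.393). Cdk4 (chr10:127063534-127067920, plus strand) had 152, 76.8, 119.7 and 133 CPM in WT samples, 94.3, 311, 89.3 and 105 in Jab1 mutants, and 172, 171, 155 and 356 in double mutants. All double mutants lay above all WT samples, by 0.82 ± 0.36 on the log2 scale (edgeR, unadjusted p = 0.044, adjusted p = 0.381), and by 0.45 without replicate 5. Against Jab1 mutants the difference was 0.51 ± 0.47, and 1.15 without Jab1-mutant replicate 2 (edgeR, adjusted p = 0.375). Cdk4 shares 31.2% of its exon bases with Tspan31 on the other strand, Kif20a 31.8% with Cdc23, Ccnd1 21.9% with Lto1 and Ccnd3 14.8% with Bysl, and whether reads were counted by strand is not given in the sources used here, so part of these counts could belong to the neighbour.

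Among the E and A cyclins and Cdk2, Ccne2, a partner of CDK2 at the start of S phase, had 3.02, 2.67, 4.07 and 7.54 CPM in WT samples, 3.99, 4.72, 4.92 and 4.48 in Jab1 mutants, and 6.18, 5.29, 9.34 and 10.99 in double mutants. Every double mutant exceeded every Jab1 mutant, by 0.81 ± 0.59 on the log2 scale (edgeR, adjusted p = 0.996), whereas WT replicate 6 lay among the double mutants. Ccna2, the cyclin of S phase and early mitosis, had 14.4, 5.62, 5.03 and 8.01 CPM in WT samples, 24.3, 49.2, 10.5 and 6.34 in Jab1 mutants, and 7.52, 9.62, 7.54 and 20.5 in double mutants. Its difference between double and Jab1 mutants was -1.0 ± 0.65 (edgeR, adjusted p = 0.996), and it was -0.28 without Jab1-mutant replicate 2. Cdk2 ranged from 3.84 to 15.6 CPM in WT samples, 9.53 to 53.0 in Jab1 mutants and 6.62 to 40.5 in double mutants, and Ccne1 stayed below 8 CPM in every sample.

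Of the 3 pocket proteins, 0 were called in any comparison. Rb1 had 30.2, 60.3, 27.3 and 29.7 CPM in WT samples, 24.7, 20.7, 44.4 and 26.2 in Jab1 mutants, and 13.1, 49.0, 9.89 and 8.10 in double mutants. In double mutants, 3 of 4 samples lay below all WT samples and replicate 2 among them, and the log2 fold change was -0.89 ± 0.58 (edgeR, adjusted p = 0.565). Without double-mutant replicate 2 it was -1.82 (edgeR, adjusted p = 0.092), the lowest of the values with 1 sample left out, of which the highest was -0.56. In Jab1 mutants the log2 fold change of Rb1 was -0.35 ± 0.37 against WT, and -0.02 without WT replicate 3. Rbl2, which encodes p130, the pocket protein of quiescent cells, had 22.5, 61.7, 39.6 and 27.3 CPM in WT samples, 47.2, 15.9, 15.1 and 12.99 in Jab1 mutants, and 44.1, 27.5, 16.6 and 8.83 in double mutants. Jab1-mutant replicate 1 lay apart from the other 3, which were below all WT samples, and the log2 fold change was -0.73 ± 0.49 (edgeR, adjusted p = 0.426), and -1.37 without replicate 1 (edgeR, adjusted p = 0.096). Rbl1, which encodes p107, had log2 fold changes of 0.76 ± 0.70 and 0.53 ± 0.67 against WT. In Jab1 mutants, Rb1, Rbl2 and Mcm4 were the only members with a fitted value below 0.

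Of the E2F factors, E2f1, E2f2 and E2f3 act mainly as activators, and E2f7 and E2f8 as repressors. Their summed level was 20.3, 13.8, 6.82 and 13.9 CPM in WT samples, 33.0, 25.9, 31.9 and 28.8 in Jab1 mutants, and 19.2, 32.4, 20.1 and 15.99 in double mutants. Each Jab1 mutant therefore lay above each WT sample in the sum, although no single factor separated the groups and 0 of the 5 were called. The sums of the other roles with several members overlapped between these groups, and no sum was tested. Of all single genes tested, 9.9% separated in this direction. E2f7 had 2.80, 1.08, 1.07 and 0.67 CPM in WT samples, 10.1, 3.17, 1.98 and 2.06 in Jab1 mutants, and 0.18, 2.68, 0.57 and 1.35 in double mutants. Its log2 fold changes were 1.62 ± 0.90 in Jab1 mutants and -0.24 ± 1.05 in double mutants against WT, and -1.85 ± 1.10 between both mutants (edgeR, adjusted p of 0.321, 0.952 and 0.996), the last of which was -1.01 without Jab1-mutant replicate 1 and -2.62 without double-mutant replicate 2, and the second -1.01 without double-mutant replicate 2 and 0.33 without WT replicate 1. All 5 factors had a fitted value below 0 in double mutants against Jab1 mutants, from -1.85 to -0.08, each with an interval that included 0. E2f8 had 1.44, 0.95, 0.60 and 0.022 CPM in WT samples, 0, 0.68, 2.22 and 2.95 in Jab1 mutants, and 0.28, 0, 1.39 and 1.32 in double mutants. It was at or under 3 counts in 3 libraries, 1 of each genotype, and its log2 fold change in double mutants against WT was -0.01 ± 1.60 and changed sign with the scaling. Per kb of exon, E2f7 and E2f8 were the lowest of the 46 members in every genotype, at 0.15 to 0.55 CPM.

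Ezh2 (chr6:47530139-47595341, minus strand), the methyltransferase of Polycomb repressive complex 2 and a known E2F target, had 24.9, 16.6, 16.3 and 23.7 CPM in WT samples, 32.3, 45.3, 38.1 and 39.7 in Jab1 mutants, and 31.1, 13.8, 23.8 and 37.6 in double mutants. All Jab1 mutants lay above WT, at 38.8 ± 5.35 against 20.4 ± 4.58 CPM, by 0.93 ± 0.30 on the log2 scale. This difference missed the threshold in edgeR (adjusted p = 0.088) and passed it in DESeq2 (adjusted p = 0.048). It had the smallest SE of the 46 members in this comparison, and its log2 fold change was 0.84 without Jab1-mutant replicate 2. In double mutants Ezh2 lay between both, 0.37 ± 0.38 from WT and -0.55 ± 0.36 from Jab1 mutants (edgeR, adjusted p of 0.737 and 0.996). Foxm1 and Mybl2, the late-cycle factors, stayed between 1.81 and 23.4 CPM in all samples, and their log2 fold changes were 0.10 and 0.56 in Jab1 mutants and 0.66 and 1.07 in double mutants, with SEs of 0.62 to 0.76.

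Within each genotype, many of the members were highest in the same sample. WT replicate 1 had the highest level of its genotype in 28 of the 46 members, Jab1-mutant replicate 2 in 29, and double-mutant replicate 5 in 29. These shares of 60.9%, 63.0% and 63.0% compare with 21.5%, 27.0% and 24.9% of all genes tested. In the replication group, Jab1-mutant replicate 2 was highest in all 11 members and double-mutant replicate 5 in 10, and in the mitosis group WT replicate 1 was highest in 14 of the 15. The summed CPM of the mitosis genes was 229, 58.7, 33.8 and 87.1 in WT samples, 142, 468, 190 and 113 in Jab1 mutants, and 120, 134, 204 and 430 in double mutants. That of the replication genes was 291, 178, 259 and 221 in WT samples, 242, 659, 200 and 203 in Jab1 mutants, and 218, 320, 319 and 689 in double mutants. Outside Jab1-mutant replicate 2 and double-mutant replicate 5, set aside here for their high values, the replication sums of mutants therefore lay between 200 and 320 CPM, close to the WT range. The mitosis sums of these other mutants lay between 113 and 204 CPM, above WT replicates 3, 5 and 6 and below WT replicate 1.

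**Figure D3:**
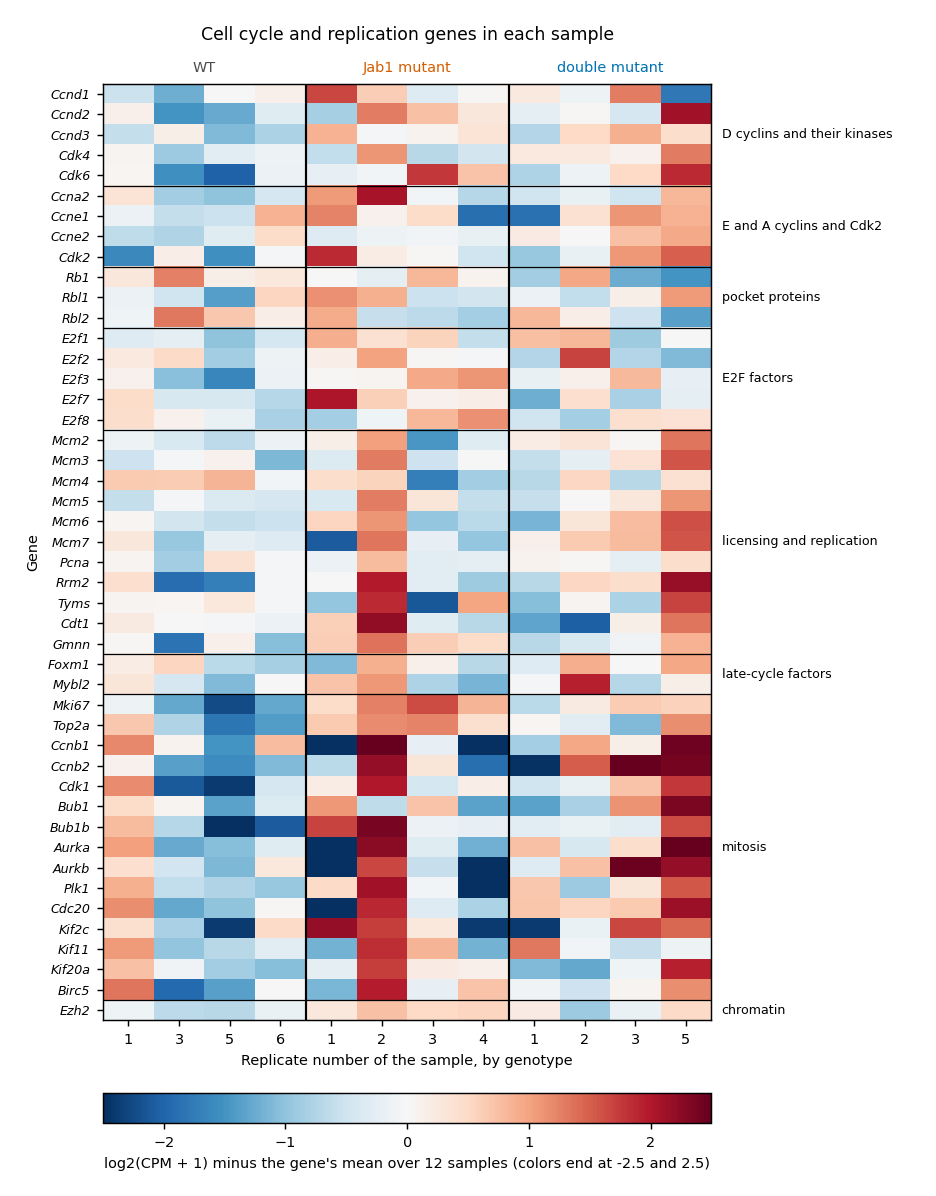
Levels of the 46 genes (rows, by role) in the 12 samples (columns, by genotype and replicate number), as log2(CPM + 1) minus the mean of the gene over all samples. Jab1-mutant replicate 2 and double-mutant replicate 5 are red through most of the replication and mitosis rows, and WT replicate 1 is the reddest of the WT samples in mitosis.

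Marker lists of other cells were summed in the same samples. The 7 neuroblast markers (Dcx, Dlx1, Dlx2, Sox11, Igfbpl1, Sp9 and Cd24a) summed to 312, 103, 84.0 and 196 CPM in WT samples, 248, 835, 344 and 330 in Jab1 mutants, and 250, 296, 147 and 1111 in double mutants. Their highest samples within each genotype were thus the same 3 as for the cell cycle genes, none of the 7 was at 0 in any library, and 0 of the 7 were called in any comparison (5.19% of all genes higher and 2.46% lower in Jab1 mutants against WT). The sum of the 10 neuron markers was also highest in Jab1-mutant replicate 2 (759 CPM) and double-mutant replicate 5 (756 CPM), with 156 to 341 CPM in the other samples. In both samples it was carried mostly by Tubb3 (381 and 336 CPM) and Stmn2 (214 and 226 CPM). Gad1 (45.1 and 25.7 CPM) and Gad2 (72.6 and 77.9 CPM) were also highest of their genotype there. Rbfox3, Syt1, Nefl and Nefm were at their lowest Jab1-mutant level in replicate 2, with Nefm at 0. In double-mutant replicate 5, Rbfox3 (14.6 CPM) and Syt1 (14.9 CPM) were the highest of the genotype and Nefl (3.62 CPM) the lowest. The 10 OPC markers, most of whose sum came from Ptprz1, did not follow this pattern, at 427 to 1112 CPM in WT samples, 424 to 782 in Jab1 mutants and 382 to 795 in double mutants, and 1 of the 10 was called higher in Jab1 mutants (5.19% of all genes). Among these markers, Pdgfra was at 0 in WT replicate 6 and in Jab1-mutant replicate 2, whereas Cspg4 (NG2) had 4.51 to 18.3 CPM in WT samples, 26.5 to 47.7 in Jab1 mutants and 1.84 to 55.9 in double mutants, highest in replicate 5. Every Jab1 mutant lay above every WT sample for 1 of the 10 (Cspg4) and below for 2 (9.9% and 7.24% of all genes). These 2 were Pcdh15, at 4.63 to 15.1 CPM in WT samples and 0 to 1.28 in Jab1 mutants, and Matn4, at 1.60 to 3.89 and 0.47 to 1.09. Of the 10, 0 were called lower (2.46% of all genes). Of the 6 markers of committed precursors, 1 was called higher in Jab1 mutants (5.19% of all genes). Endothelium markers (10 genes) summed to 410 to 972 CPM in WT samples, 1014 to 7066 in Jab1 mutants and 795 to 7786 in double mutants, lowest in replicate 2 of the Jab1 mutants and highest in replicate 5 of the double mutants. Mural markers (9 genes, without Cspg4) summed to 288 to 532 CPM in WT samples, 982 to 1762 in Jab1 mutants and 305 to 1683 in double mutants. Every Jab1 mutant lay above every WT sample in the mural sum, and double-mutant replicate 5 was the highest of its genotype, as for Cspg4. Double-mutant replicate 3, with the highest sum of microglia markers, had the highest level of its genotype in 9 of the 46 members (19.6%). The part of these other cells in the levels of the 46 genes was not tested, and in these bulk samples fewer cells of a type and less RNA per cell cannot be told apart.

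**Figure D4:**
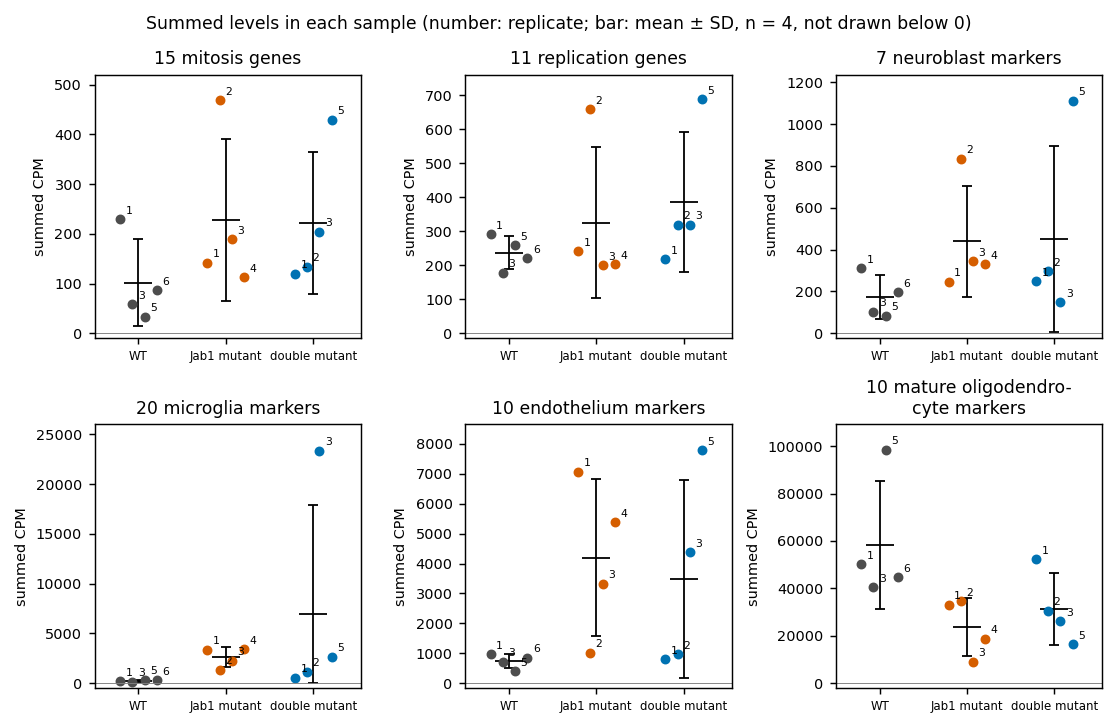
Summed CPM (vertical axes, from 0) of the mitosis and replication genes and of 4 marker lists in each sample, by genotype, with replicate numbers beside the points and bars for the mean ± SD. Jab1-mutant replicate 2 and double-mutant replicate 5 stand above the other samples of their genotype for the mitosis, replication and neuroblast sums, while the highest microglia sum is in double-mutant replicate 3.

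Other genes of the pathway were taken from a list of 97 genes for origins and forks, polymerases and nucleotides, mitosis, E2F partners with the MuvB complex, and the CDK-activating kinase, of which 95 were tested. In Jab1 mutants against WT, 2 were called higher (2.11%, against 5.19% of all genes) and 0 lower (2.46% of all genes). Lig1, the ligase that joins Okazaki fragments, rose from 15.8 ± 4.34 to 51.5 ± 22.4 CPM (SD, n = 4), by 1.70 ± 0.38 on the log2 scale (edgeR, adjusted p = 0.022). Incenp, the scaffold of the chromosomal passenger complex in which Aurkb works, rose from 10.8 ± 2.39 to 65.5 ± 20.2 CPM, by 2.60 ± 0.34 (edgeR, adjusted p = 0.0021), and had 22.8 ± 9.55 CPM in double mutants. Incenp was also the gene of the list with the smallest p between double and Jab1 mutants, where all double mutants lay below, by -1.52 ± 0.38 (edgeR, unadjusted p = 0.0021, adjusted p = 0.713). The next toward lower levels were Cenpf (-0.65 ± 0.34) and Pola1 (-0.87 ± 0.46), and toward higher levels Rbbp4 (0.83 ± 0.44), Cdk7 (0.76 ± 0.50) and Rrm1 (0.71 ± 0.49). The spindle gene Nusap1 came next in Jab1 mutants (2.003 ± 0.64, edgeR, adjusted p = 0.084). Toward lower levels, the smallest p values were those of Anln (-1.60 ± 0.57), which myelinating oligodendrocytes also express as a septin scaffold, of the CDK1-inhibiting kinase gene Pkmyt1 (-1.89 ± 0.83), and of the spindle checkpoint gene Bub3 (-0.65 ± 0.34), none of which was called (edgeR, adjusted p of 0.117, 0.202 and 0.289). Over the 95 genes, 70.5% lay above 0 in Jab1 mutants, compared with 51% of all genes, with a median of 0.58, and the median was 1.19 in the 43 mitosis genes, 0.33 in the 22 genes of polymerases and nucleotides and -0.54 in the 11 of E2F partners and MuvB. In double mutants 0 of the 95 were called against WT, with a median of 0.39. Against WT the smallest p in double mutants were those of Lig1 (1.09 ± 0.38), Kif18b (1.76 ± 0.65) and Incenp (1.07 ± 0.40) toward higher levels, and of Rfc2 (-0.44 ± 0.27), Pkmyt1 (-0.86 ± 0.56) and Orc4 (-0.41 ± 0.29) toward lower ones. Jab1-mutant replicate 2 and double-mutant replicate 5 were the highest of their genotype in 56 and 51 of the 95 genes.

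Promoter windows were available for 36 of the 46 members, as 40 windows of 250 bases, since a gene can have several start sites. An E2F element was found in 20% of the members' windows, compared with 1.86% of all 32851 mouse windows, a CHR element in 35%, compared with 17.1%, and a CCAAT box in 67.5%, compared with 33.8%. CHR elements were in 61.5% of the 13 mitosis windows and 20% of the 10 replication windows, and E2F elements in 7.69% and 30%, which means 1 gene (Cdk1) and 3 genes (Mcm5, Mcm6 and Mcm7). Ezh2 held CCAAT boxes but none of the E2F or CHR forms searched. Matches of these letters are a description of the windows and not of binding, short motifs such as CHR and CCAAT occur often by length alone, and the window shares were not tested.

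**Figure D5:**
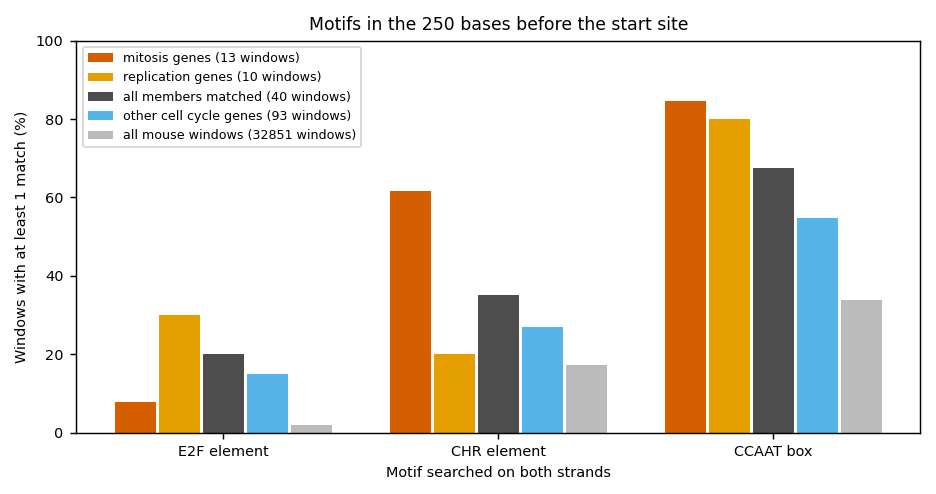
Share of promoter windows (vertical axis, percent) with at least 1 match to 3 motifs, for mitosis genes, replication genes, all matched members, the other cell cycle genes and all mouse windows. The mitosis genes lead for CHR elements (61.5%) and CCAAT boxes (84.6%), and the replication genes for E2F elements (30%).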

How the data were processed

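RNA-Seq was performed on 12 samples of sorted cells, 4 per genotype. The authors amplified the RNA with the SMART-Seq v4 kit, sequenced paired ends and ran Trimmomatic 0.32 for trimming, STAR 2.5.3a for alignment (GRCm38) and featureCounts for counting (GENCODE basic), and they deposited raw counts per gene symbol. Whether strand was used and how reads with several matches were treated is not given in the sources used here, so genes with pseudogenes (Ccnb1, Ccnb2, Ccnd3, Pcna and Tyms) are uncertain. No column was left out (0 unassigned).

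The deposited counts were scaled to CPM with TMM factors over 12 samples. Each comparison was a quasi-likelihood F test in edgeR 4.0.16 (R 4.3.3) of 4 against 4 samples, with Benjamini-Hochberg adjustment over 17716 genes and a threshold of 0.05. It was tried on simulated counts with planted changes larger than the median change of the members, so recovery of smaller changes was not tested. Errors of log2 fold changes are SEs from this fit, and p-values measure the spread between samples. Alternatives were DESeq2 1.42.0, upper-quartile normalization, DESeq2 size factors in edgeR, a filter at a mean of 10 CPM or none, 1 fit of all 12 samples with and without a replicate block, and each sample left out in turn. Positions are from GENCODE M21, and promoters from RefSeq (GRCm38.p6).

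Values in every sample are given for each member with an adjusted p under 0.05 in any comparison and for the 5 members with the smallest p in each direction of each comparison; other members are given by ranges and counts, and of the other pathway genes those called and the 3 with the smallest p. Ccnb1 and Ccnd2 were added after their values had been seen. The members, gene lists and marker lists were chosen with earlier results of these data known. Depth of 61485556 to 153495112 counts per sample makes 3 counts worth at most 0.044 CPM. The reads carry no molecular identifiers, so this floor covers counting error only.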

Additional observations from a re-analysis of the deposited data

Results flagged for a closer look

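In 8 of the 138 combinations of a member and a genotype, 1 sample stood far from the other 3 of its genotype on the log2(CPM + 1) scale, by Dixon's test. Chance alone flags about 1 in 20 groups, which is 6.9 of 138. Of the 8, 3 were in double-mutant replicate 5 and 2 in Jab1-mutant replicate 2. Cdk4 was at 311 CPM in Jab1-mutant replicate 2 (89.3 to 105 in the other 3) and at 356 CPM in double-mutant replicate 5 (155 to 172). Pcna was at 128 CPM in Jab1-mutant replicate 2 (60.4 to 65.7). Bub1b was at 17.9 CPM (4.03 to 4.46) and Cdc20 at 56.9 CPM (17.8 to 20.2) in double-mutant replicate 5. The remaining 3 were in other samples and concern factors that bind or belong to the E2F family, with Rb1 at 60.3 CPM in WT replicate 3 (27.3 to 30.2), Rbl2 at 47.2 CPM in Jab1-mutant replicate 1 (12.99 to 15.9) and E2f2 at 9.23 CPM in double-mutant replicate 2 (0.46 to 0.91). The causes were not tested.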

How the results depend on the processing

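The number of members higher in Jab1 mutants than in WT was 1 and moved to 3 with DESeq2 (Mki67, Top2a and Ezh2), and to between 0 and 2 when 1 sample was left out. It was 0 without WT replicate 3, 5 or 6 or Jab1-mutant replicate 3, and 2 without WT replicate 1. In double mutants against WT the number was 0, and 0 to 1 when 1 sample was left out, since Ccnb2 was called without double-mutant replicate 1. No member was called lower under any alternative run, and none was called in either direction between double and Jab1 mutants. Of 414 values under alternatives for the 28 named pairs of a gene and a comparison, 397 kept their direction and side of the threshold, 5 lost and 3 gained a call, and 9 changed sign, all of them with intervals that included 0. Only Mki67 in Jab1 mutants against WT was called in the main fit, and all 5 lost calls were its own. For the other pairs, keeping their side mostly means staying uncalled. Sizes still moved, as for Aurkb between double and Jab1 mutants (1.31 to 4.13 when 1 sample was left out). The sign changes concern E2f7 in double mutants against WT (-1.01 to 0.33 when 1 sample was left out, with 0.33 without WT replicate 1 and 0.12 without double-mutant replicate 1) and E2f8 in the same comparison (0.040 with DESeq2, 0.018 with upper-quartile normalization, 0.040 with DESeq2 size factors, and -0.49 to 0.51 when 1 sample was left out, with 0.12, 0.27 and 0.42 among these).

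With the replicate number as a block over all 12 samples, 0 members were called, and the log2 fold change of Mki67 in Jab1 mutants was 2.19 (edgeR, adjusted p = 0.240). The deviations of same-numbered samples from their genotype means correlated between -0.10 and 0.06. These values give no sign of pairing by number, but cannot show whether same-numbered samples were handled together. Depth limited few values, as 36 of the 46 members were above 3 counts in every library, and the spread between 4 samples set the precision, with a median SE of 0.70 in Jab1 mutants against WT.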
